A study of Rattus norvegicus with 30 samples.

Results

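The genes described here are 10 targets of the transcriptional coactivators YAP and TAZ in rat hepatocytes: Ccn1, Ccn2, Ptpn14, Dock5, Amotl2, Nt5e, Lats2, Crim1, Igfbp3 and F3. They were chosen by name with earlier results of these data known, so their counts and ranks below are a description. Every probe set that the platform annotation gives to 1 of them alone was taken. This gave 16 of the 31042 probe sets on the array. Of these, 13 were bright enough to be tested, and each of the 10 genes had at least 1 among them, out of 10604 tested genes. The cells were primary hepatocytes of male Sprague Dawley rats, bought frozen, thawed onto collagen, overlaid with Matrigel and given diisononyl phthalate (DINP), a plasticiser, on day 3. There were 6 groups of 5 arrays: DINP at 25 mM, DINP at 100 mM and the 1% DMSO vehicle, each harvested after 24 h and after 48 h. The DINP solutions had been made up in DMSO as well. The doses are in mM as the labels have them, and it could not be checked that this unit was meant. Each array came from a well of its own. Nothing used here tells from which or how many rats the wells came, and the p-values therefore reflect how wells varied.

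YAP (Yap1) and TAZ (Wwtr1) carry the output of the Hippo pathway, a kinase cascade that responds to cell contact, cell shape and the stiffness of the substrate. The kinases Lats1 and Lats2 phosphorylate both coactivators and so keep them out of the nucleus. Unphosphorylated YAP and TAZ bind TEAD transcription factors on DNA and switch on a set of genes, of which Ccn2 and Ccn1 are the most used as readouts. Several targets, among them Lats2, Amotl2 and Ptpn14, encode proteins that restrain YAP or TAZ in turn. In the liver the pathway is known for its control of organ size and of hepatocyte identity.

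The stretch before each gene's annotated start was read for the core word that TEAD factors bind, GGAATG, because the genes were grouped by this route of regulation. RefSeq's table for the rat build GRCr8 held such a stretch for 7 of the 10 genes, and the 250 bases before the start were searched on both strands. Ccn2 held 3 matches, all on its own strand, beginning 166, 101 and 92 bases before the start, and none of them overlap. Ccn1, Amotl2 and Ptpn14 each held 1 match on the opposite strand, which reads CATTCC along the gene's own strand. Read along the gene's own strand, these matches began 113, 76 and 135 bases before the start. The 4 stretches are printed because they hold the word, with each match in capitals, 5′ to 3′ along the gene's own strand. They lie at chr1:22624615-22624864 (minus strand) for Ccn2, chr2:237225690-237225939 (minus strand) for Ccn1, chr8:112182376-112182625 (plus strand) for Amotl2 and chr13:103799244-103799493 (plus strand) for Ptpn14.
Ccn2: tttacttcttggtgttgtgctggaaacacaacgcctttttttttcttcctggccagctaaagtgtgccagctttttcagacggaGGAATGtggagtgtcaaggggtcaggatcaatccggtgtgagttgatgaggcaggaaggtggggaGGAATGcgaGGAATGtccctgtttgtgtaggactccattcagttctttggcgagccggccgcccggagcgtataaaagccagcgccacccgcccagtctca
Ccn1: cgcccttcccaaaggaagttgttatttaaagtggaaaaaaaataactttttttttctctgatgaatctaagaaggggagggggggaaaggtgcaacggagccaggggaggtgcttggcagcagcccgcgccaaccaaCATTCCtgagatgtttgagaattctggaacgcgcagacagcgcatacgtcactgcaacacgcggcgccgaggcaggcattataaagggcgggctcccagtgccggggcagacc
Amotl2: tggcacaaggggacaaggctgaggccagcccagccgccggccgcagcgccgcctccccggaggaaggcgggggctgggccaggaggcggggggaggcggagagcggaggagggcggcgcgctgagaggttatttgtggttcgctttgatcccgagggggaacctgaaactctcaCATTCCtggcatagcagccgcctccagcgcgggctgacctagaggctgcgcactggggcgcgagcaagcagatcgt
Ptpn14: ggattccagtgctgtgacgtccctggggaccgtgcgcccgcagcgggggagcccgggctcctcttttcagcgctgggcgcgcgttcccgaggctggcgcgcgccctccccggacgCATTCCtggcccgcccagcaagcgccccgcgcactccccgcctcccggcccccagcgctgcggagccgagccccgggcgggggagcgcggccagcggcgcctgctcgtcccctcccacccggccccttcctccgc

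Over all 33469 stretches of this length in the table, 12.1% held the TEAD word at least once, 0.902% held it 2 or more times, and 27 of them, or 0.0807%, held it 3 or more times. The stretches of Nt5e, Crim1 and Igfbp3 did not hold it. The AP-1 word TGANTCA, where N is any base and which occurs in 6.34% of all stretches, and the CArG box bound by serum response factor, which occurs in 1.5%, were in none of the 7. A match is a string of letters and not a measured binding site, and the absence of one says nothing of elements elsewhere. Dock5, Lats2 and F3 are named only.

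**Figure D1:**
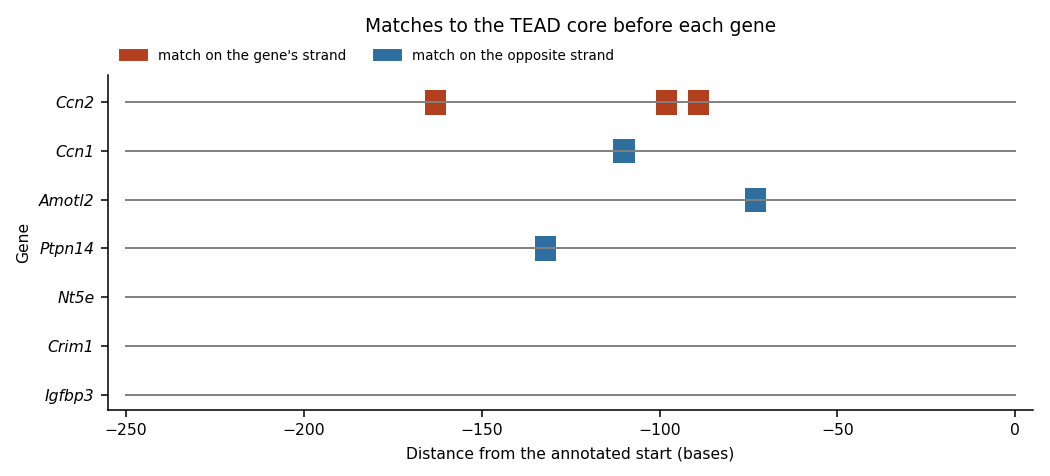
Matches to the TEAD core word in the 250 bases before the annotated start of 7 genes. The horizontal axis is the distance from the start in bases, each line is 1 gene, and blocks mark matches on the gene's strand (red) or the opposite strand (blue). Ccn2 has 3 matches, Ccn1, Amotl2 and Ptpn14 have 1 each, and Nt5e, Crim1 and Igfbp3 have 0.

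DINP lowered Ccn2 more than any other of the 10604 tested genes, by 4.36-fold to 7.0-fold, at both doses and both times. It lowered Ccn1 by 1.52-fold to 1.62-fold. The other 8 genes mostly lay lower, and which of them passed the test differed between comparisons. With log2 differences of all genes in bins 0.1 wide, the next gene at 24 h lay in the bin from -1.7 (25 mM) or -1.8 (100 mM). At 48 h the first place of Ccn2 was narrow. Another gene shared its bin from -2.5 at 25 mM. At 100 mM another lay in the bin from -2.2, beside Ccn2 at -2.21. A gene was called where limma's p, adjusted over all 18625 tested probe sets by the Benjamini-Hochberg method, was under 0.05, and a gene with several probe sets was read from its brightest. At 24 h, 25 mM lowered 7 of the 10 genes (Ccn1, Ccn2, Ptpn14, Dock5, Amotl2, Nt5e and Crim1) and raised 0, while 7.84% of all tested genes were called lower and 7.87% higher. After 100 mM for 24 h, 4 of the 10 were lower (Ccn1, Ccn2, Dock5 and Nt5e) and 0 higher, beside 7.02% lower and 7.54% higher among all genes. At 48 h, 25 mM lowered 4 (Ccn1, Ccn2, Nt5e and Igfbp3) and raised 0, beside 12.1% and 9.78% of all genes. For 100 mM at 48 h, 4 were lower (Ccn1, Ccn2, Amotl2 and Lats2) and 0 higher, beside 9.2% and 8.69%. The arrays are a bulk measurement, in which fewer cells of a type and less RNA per cell cannot be told apart.

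The median log2 difference from vehicle over the 10 genes was -0.46 and -0.36 at 25 and 100 mM for 24 h and -0.26 and -0.32 for 48 h. Over all tested genes the medians were -0.02, -0.03, -0.03 and -0.06 in the same order. Of the 40 differences, 10 genes in 4 comparisons, 38 lay below 0 and 19 were called, all 19 of them lower. With quantile normalisation 37 lay below 0, and with each array centred on its own median 36 did. With the median of a gene's tested probe sets in place of the brightest, 36 lay below 0 and 17 were called, those of Ptpn14 at 25 mM for 24 h and Igfbp3 at 25 mM for 48 h being lost. Arrays of the DINP group all lay below all 5 vehicle arrays for 5 genes at 25 mM and 5 at 100 mM after 24 h, beside 7.11% and 7.17% of all genes, and for 3 and 4 genes after 48 h, beside 7.33% and 6.71%. Both doses at a time were compared with the same 5 vehicle arrays, so their values are given side by side and are not separate support for each other.

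**Figure D2:**
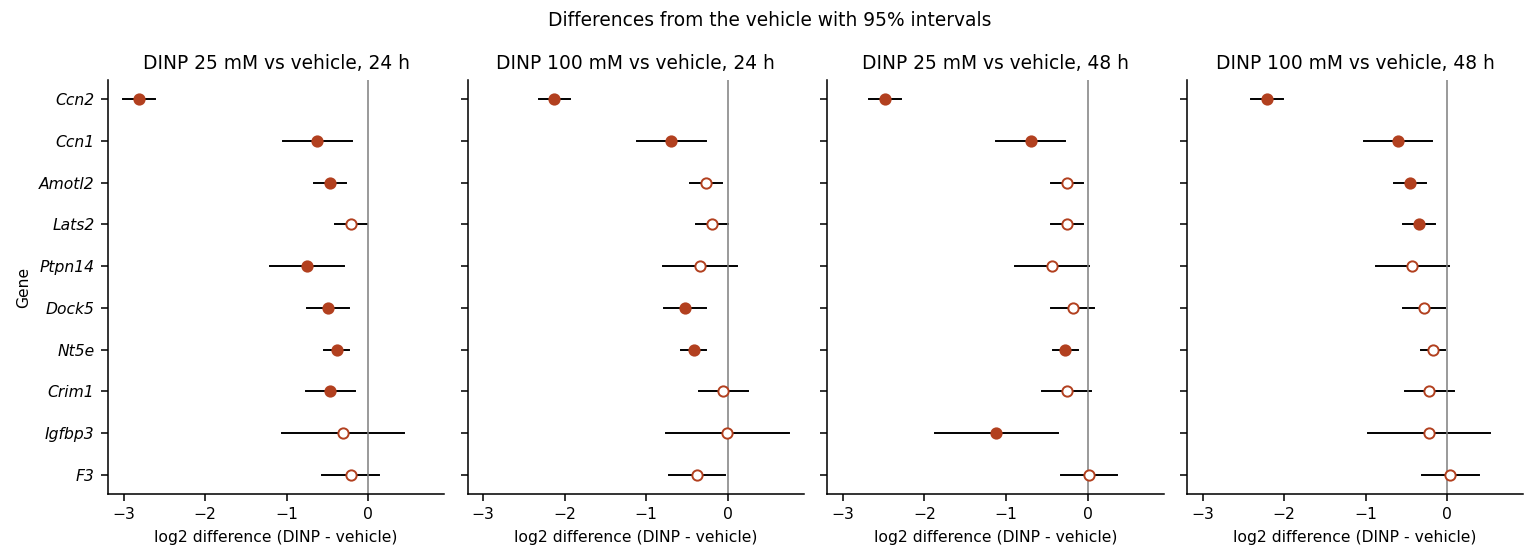
Log2 difference from vehicle (DINP minus vehicle, on the log2(signal + 16) scale) with its 95% interval for the 10 genes, in 1 panel for each dose and time. Filled points passed the test and open points did not. Ccn2 lies between -2.81 and -2.13 in the 4 panels, and each other gene lies between -1.12 and 0.04.

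Ccn2, or connective tissue growth factor, is a secreted matrix-associated protein that promotes fibrosis. At 24 h its signal in the 5 arrays was 1432, 1250, 1119, 1597 and 1395 with 25 mM DINP and 2206, 1913, 2116, 2089 and 2600 with 100 mM, against 10277, 9671, 8249, 9875 and 9761 with vehicle. The 3 groups did not overlap. The log2 difference from vehicle was -2.81 ± 0.10 (SE, adjusted p = 1.04e-20) at 25 mM, a 7.0-fold lower signal, and -2.13 ± 0.10 (adjusted p = 1.96e-17) at 100 mM, 4.36-fold lower.

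After 48 h the Ccn2 signal was 2409, 2517, 2175, 2485 and 1982 with 25 mM DINP and 3222, 3202, 2625, 2675 and 2362 with 100 mM, against 14292, 13002, 12148, 12162 and 13347 with vehicle. Again every DINP array lay below every vehicle array, while the arrays of the 2 doses overlapped. Ccn2 was 5.6-fold lower at 25 mM (log2 difference -2.48 ± 0.10, adjusted p = 2.15e-19) and 4.62-fold lower at 100 mM (-2.21 ± 0.10, adjusted p = 5.04e-18). On the linear scale the group means were 1358 ± 182, 2185 ± 255 and 9567 ± 772 at 24 h for 25 mM, 100 mM and vehicle, and 2314 ± 229, 2817 ± 380 and 12990.3 ± 897 at 48 h (SD, n = 5 each).

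**Figure D3:**
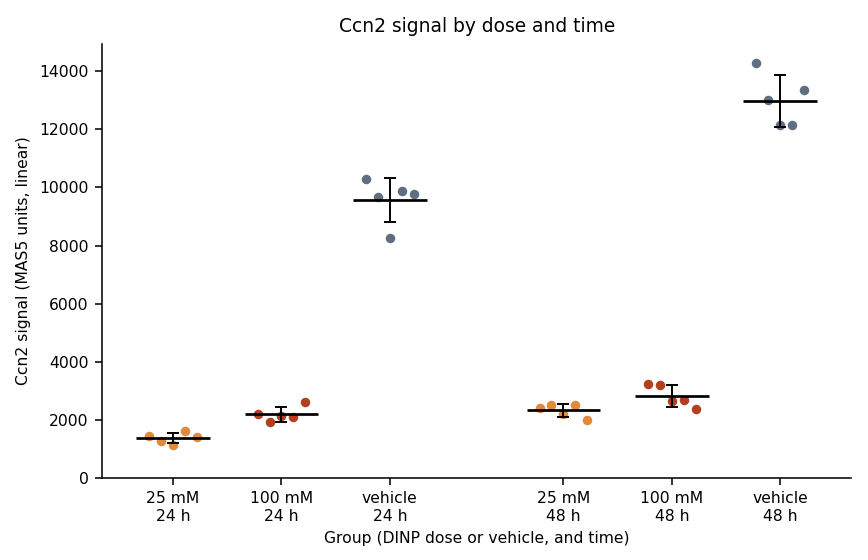
Signal of Ccn2 (linear MAS5 units) in each array, by dose and time, with the mean and SD of 5 arrays as bars. DINP arrays lie between 1119 and 3222 at both times, against 8249 to 14292 with vehicle.

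Ccn1, or CYR61, is the close relative of Ccn2 and is also secreted into the matrix. Its signal at 24 h was 358, 356, 369, 286 and 334 with 25 mM and 435, 216, 265, 430 and 323 with 100 mM, against 539, 697, 303, 557 and 663 with vehicle. The vehicle array at 303 lay among the DINP arrays, and the other 4 lay above all of them. Ccn1 fell by 0.62 ± 0.21 (adjusted p = 0.0406) at 25 mM and by 0.69 ± 0.21 (adjusted p = 0.0232) at 100 mM on the log2 scale. The 25 mM call ended when any 1 of the 10 arrays other than that vehicle array was left out, with adjusted p between 0.0525 and 0.121. It also ended with quantile normalisation (0.0592), median centring (0.071), no filter on dim probe sets (0.0733) and the compared groups alone (0.0637). The 100 mM call ended without vehicle array 2, 4 or 5 or without DINP array 2 or 3, with adjusted p between 0.0521 and 0.0857, and with the compared groups alone (0.0788).

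At 48 h the Ccn1 signal was 496, 496, 422, 469 and 297 with 25 mM and 512, 452, 537, 490 and 332 with 100 mM, against 701, 903, 632, 802 and 546 with vehicle. Neither dose overlapped the vehicle arrays. The log2 difference was -0.70 ± 0.21 (adjusted p = 0.0153) at 25 mM and -0.61 ± 0.21 (adjusted p = 0.0443) at 100 mM. Both calls lay close to the threshold. The first ended without vehicle array 2 (adjusted p = 0.0534) or DINP array 5 (0.0621). The second ended without vehicle array 1, 2, 3 or 4 or DINP array 1, 2, 4 or 5, with adjusted p between 0.0514 and 0.131. It also ended with quantile normalisation (0.0952), median centring (0.0973) and no filter on dim probe sets (0.079).

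**Figure D4:**
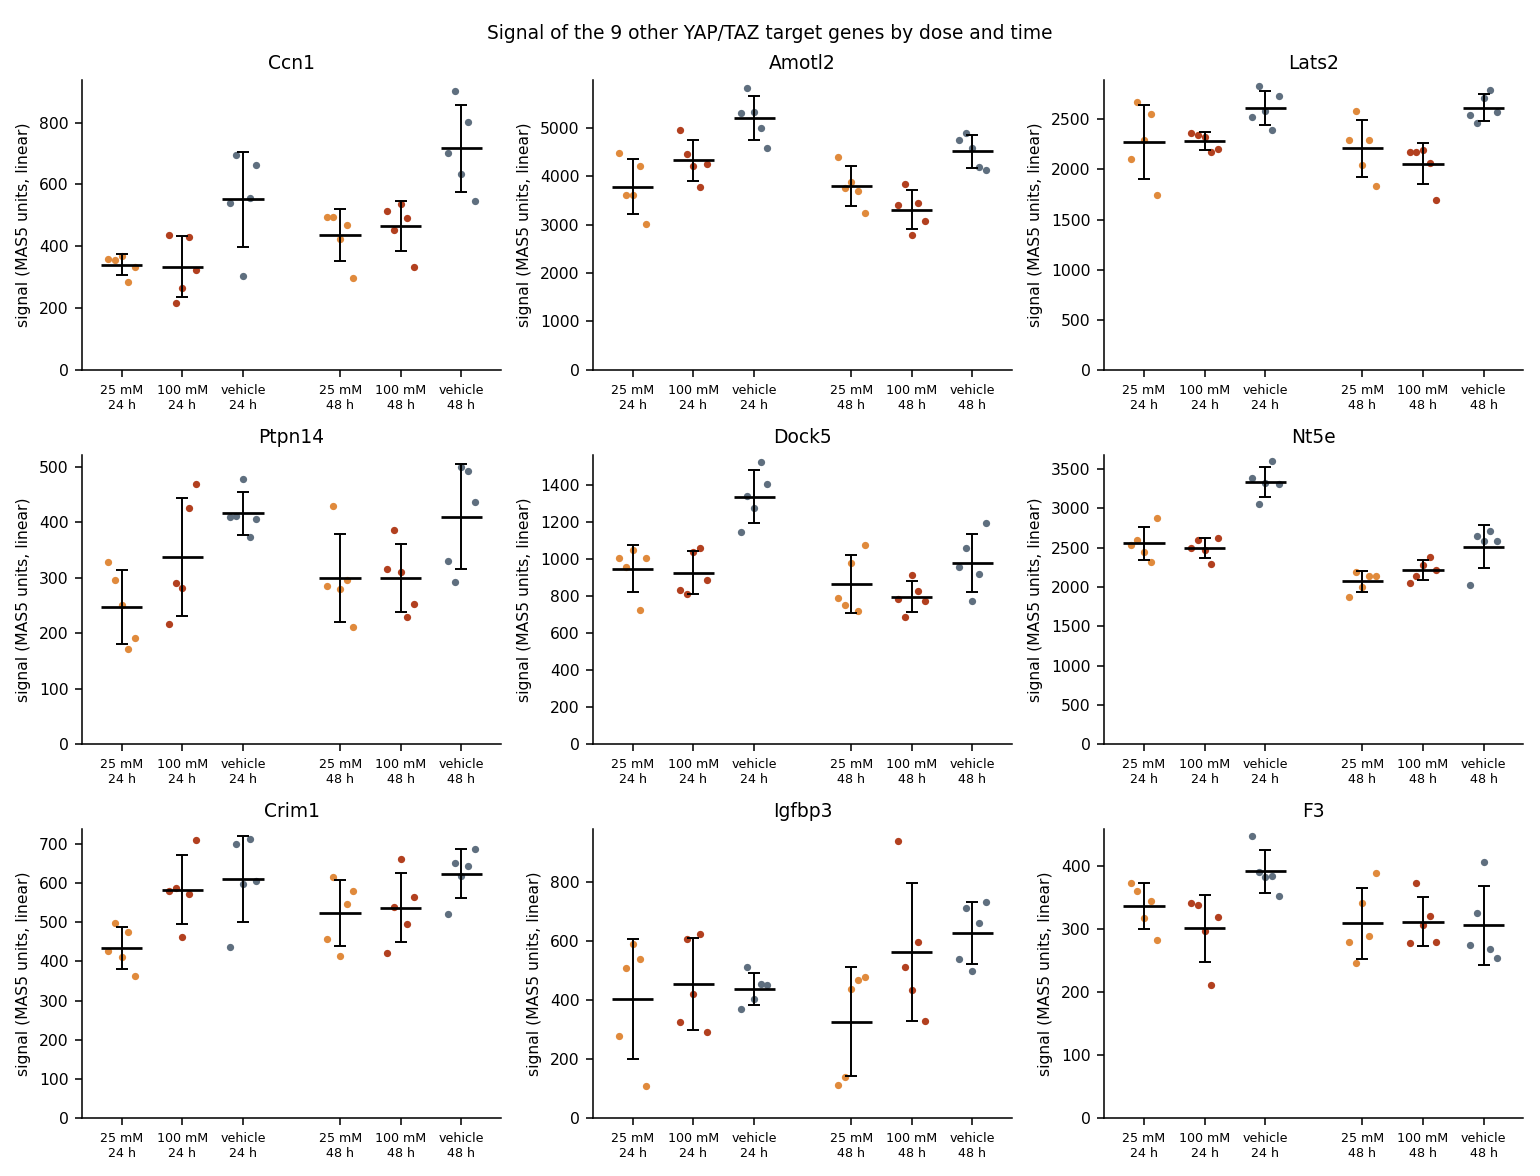
Signal of the 9 genes other than Ccn2 (linear MAS5 units, axes from 0) in each array, by dose and time, with the mean and SD of 5 arrays as bars, each gene read from its brightest tested probe set. Nt5e and Dock5 at 24 h show DINP arrays below all vehicle arrays at both doses, whereas F3 at 48 h shows groups that overlap.

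Of the 3 genes whose products feed back on the pathway, Amotl2 and Lats2 were lower at 100 mM after 48 h, and Amotl2 and Ptpn14 at 25 mM after 24 h. Amotl2, an angiomotin family scaffold that binds YAP and holds it at cell junctions, had signals of 4477, 3609, 3606, 4207 and 3015 with 25 mM and 4947, 4445, 4214, 3768 and 4243 with 100 mM, against 5301, 5824, 5319, 4992 and 4580 with vehicle, at 24 h. The 25 mM arrays all lay below the vehicle arrays, and the 100 mM arrays overlapped them in 1 array. Its log2 difference was -0.47 ± 0.10 (adjusted p = 0.000725) at 25 mM and -0.27 ± 0.10 (adjusted p = 0.0666) at 100 mM.

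At 48 h Amotl2 read 4391, 3746, 3884, 3685 and 3234 with 25 mM and 3404, 3836, 2780, 3438 and 3065 with 100 mM, against 4750, 4888, 4572, 4193 and 4135 with vehicle. Here the 100 mM arrays were the ones that all lay below vehicle. The differences were -0.25 ± 0.10 (adjusted p = 0.0662) at 25 mM and -0.45 ± 0.10 (adjusted p = 0.00104) at 100 mM. The doses did not differ by the test: 100 mM minus 25 mM was 0.20 ± 0.10 at 24 h and -0.20 ± 0.10 at 48 h, with adjusted p of 1.0 and 0.662. The labels number the arrays 1 to 30, and each run of 6 numbers holds 1 array of each group. With the run as a block, Amotl2 passed the test in the 2 comparisons it had missed, with adjusted p of 0.0199 at 100 mM for 24 h and 0.0198 at 25 mM for 48 h. The first also passed without DINP array 1 (adjusted p = 0.0352) or vehicle array 5 (0.042), and the second without DINP array 1 (0.0317).

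Lats2, the kinase that phosphorylates YAP and TAZ, had signals of 2169, 2169, 2194, 2061 and 1697 with 100 mM at 48 h, against 2540, 2463, 2710, 2791 and 2569 with vehicle. All 5 DINP arrays lay below the vehicle arrays, and the difference was -0.35 ± 0.09 (adjusted p = 0.0102). That call ended with quantile normalisation (-0.27, adjusted p = 0.0587) and with median centring (-0.24, adjusted p = 0.117). The other 3 comparisons gave -0.21 ± 0.09 at 25 mM and -0.19 ± 0.09 at 100 mM for 24 h, and -0.25 ± 0.09 at 25 mM for 48 h, with adjusted p of 0.150, 0.205 and 0.067. At 100 mM for 24 h the arrays did not overlap even so, at 2172 to 2365 with DINP against 2395 to 2832 with vehicle. With the run of array numbers as a block, the 25 mM difference at 48 h passed (adjusted p = 0.0397), as it did without DINP array 2 (0.0243).

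Ptpn14 encodes a tyrosine phosphatase that binds YAP and keeps it in the cytoplasm. Its brightest probe set read 328, 297, 251, 171 and 191 with 25 mM at 24 h, against 410, 412, 479, 373 and 406 with vehicle, without overlap. It fell by 0.75 ± 0.22 on the log2 scale (adjusted p = 0.0201), and the call ended without vehicle array 3 (adjusted p = 0.0516), DINP array 4 (0.0769) or DINP array 5 (0.0562) and with median centring (0.0514). With the median of the gene's 2 tested probe sets, the difference was -0.19 (adjusted p = 0.698). At 100 mM for 24 h the difference was -0.34 ± 0.22, and at 48 h it was -0.44 ± 0.22 for 25 mM and -0.43 ± 0.22 for 100 mM, with adjusted p between 0.194 and 0.369. The gene has 5 probe sets here, and they do not give 1 answer. The second tested one differed by 0.37 ± 0.39 and 0.24 ± 0.39 at 24 h and by 0.31 ± 0.39 and -0.36 ± 0.39 at 48 h (25 mM first), with no call. Its mean lay below the dimmest tested mean with vehicle at 24 h and with 100 mM at 48 h, so signal above background is not shown there. The other 3 were too dim to test.

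Dock5, an exchange factor that activates the GTPase Rac, was lower at both doses after 24 h. Its signal was 1009, 959, 1049, 726 and 1005 with 25 mM and 833, 815, 1039, 1063 and 886 with 100 mM, against 1149, 1343, 1276, 1525 and 1406 with vehicle. Neither dose overlapped the vehicle. The log2 difference was -0.49 ± 0.13 (adjusted p = 0.00681) at 25 mM and -0.53 ± 0.13 (adjusted p = 0.00444) at 100 mM. After 48 h the arrays overlapped, at 718 to 1080 with 25 mM and 688 to 917 with 100 mM, against 773 to 1194 with vehicle, and the differences were -0.18 ± 0.13 and -0.28 ± 0.13 (adjusted p = 0.376 and 0.142). A second probe set of the gene gave -0.23 ± 0.14 and -0.38 ± 0.14 at 24 h and 0.04 ± 0.14 and -0.18 ± 0.14 at 48 h, none of them called.

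Nt5e encodes CD73, the cell surface enzyme that turns extracellular AMP into adenosine. At 24 h its signal was 2532, 2591, 2448, 2323 and 2879 with 25 mM and 2493, 2593, 2473, 2291 and 2628 with 100 mM, against 3386, 3052, 3326, 3599 and 3310 with vehicle. Every DINP array lay below every vehicle array. Nt5e fell by 0.38 ± 0.07 (adjusted p = 0.000367) at 25 mM and by 0.42 ± 0.07 (adjusted p = 0.000158) at 100 mM on the log2 scale.

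At 48 h Nt5e read 1877, 2191, 1998, 2141 and 2142 with 25 mM and 2056, 2140, 2278, 2386 and 2215 with 100 mM, against 2027, 2650, 2588, 2710 and 2584 with vehicle. The vehicle array at 2027 lay among the DINP arrays, and the other 4 lay above all of them. The difference was -0.27 ± 0.07 (adjusted p = 0.00931) at 25 mM and -0.17 ± 0.07 (adjusted p = 0.122) at 100 mM. Without that vehicle array the 100 mM difference was -0.25 and passed (adjusted p = 0.0115). The 25 mM call ended with quantile normalisation (adjusted p = 0.0652) and when the compared groups alone were fitted (0.0751).

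Crim1, a membrane protein that binds bone morphogenetic proteins, was lower in 1 comparison. At 25 mM for 24 h its signal was 426, 498, 411, 476 and 364, against 437, 698, 598, 713 and 605 with vehicle, where the first vehicle array lay within the DINP range. The difference was -0.46 ± 0.15 (adjusted p = 0.0335). It no longer passed without vehicle array 2, 3, 4 or 5 or DINP array 1, 3 or 5 (adjusted p between 0.0538 and 0.105), nor with quantile normalisation (0.085), median centring (0.103), no filter on dim probe sets (0.0625) or the compared groups alone (0.0763). The other comparisons gave -0.06 ± 0.15 at 100 mM for 24 h, -0.26 ± 0.15 at 25 mM for 48 h and -0.22 ± 0.15 at 100 mM for 48 h, all without a call.

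F3 encodes tissue factor, which starts blood coagulation, and was called in none of the 4 comparisons. At 24 h its signal was 283 to 373 with 25 mM and 211 to 341 with 100 mM, against 353 to 447 with vehicle. The 100 mM arrays did not overlap the vehicle arrays, and the difference of -0.38 ± 0.17 missed the threshold (adjusted p = 0.162). At 25 mM it was -0.21 ± 0.17 (adjusted p = 0.488). At 48 h the differences were 0.02 ± 0.17 and 0.04 ± 0.17, with 95% intervals from -0.33 to 0.37 and from -0.31 to 0.39.

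Igfbp3, which binds insulin-like growth factors in the circulation, had 2 tested probe sets that did not run together. The brighter read 112, 140, 439, 470 and 480 with 25 mM at 48 h, against 539, 714, 499, 662 and 735 with vehicle, and fell by 1.12 ± 0.37 on the log2 scale (adjusted p = 0.0313). The groups did not overlap, but 2 of the DINP arrays were far below the other 3. Without either of these 2 arrays the difference was -0.82 (adjusted p = 0.134) or -0.89 (0.104), and without vehicle array 2, 4 or 5 the adjusted p was 0.0595 to 0.0661. The call also ended with no filter on dim probe sets (adjusted p = 0.0544) and with the compared groups alone (0.0526).

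The dimmer probe set of Igfbp3 read 395, 438, 403, 387 and 413 in those DINP arrays, against 42, 283, 401, 204 and 433 with vehicle. It lay higher by 0.85 ± 0.32 (adjusted p = 0.060), and at 100 mM for 48 h by 0.83 ± 0.32 (adjusted p = 0.0774), where the brighter one differed by -0.22 ± 0.37. The vehicle mean of the dimmer probe set at 48 h, 7.87 on the log2 scale, was below the dimmest tested mean of 7.96, so signal above background is not shown there. At 24 h the brighter probe set differed by -0.31 ± 0.37 and -0.01 ± 0.37 at 25 and 100 mM, and the dimmer by 0.19 ± 0.32 and 0.26 ± 0.32. The direction of Igfbp3 therefore depended on the probe set read. With the median of its 2 tested probe sets, the difference was -0.13 at 25 mM for 48 h (adjusted p = 0.785), -0.06 at 25 mM for 24 h, and 0.13 and 0.30 at 100 mM for 24 h and 48 h.

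**Figure D5:**
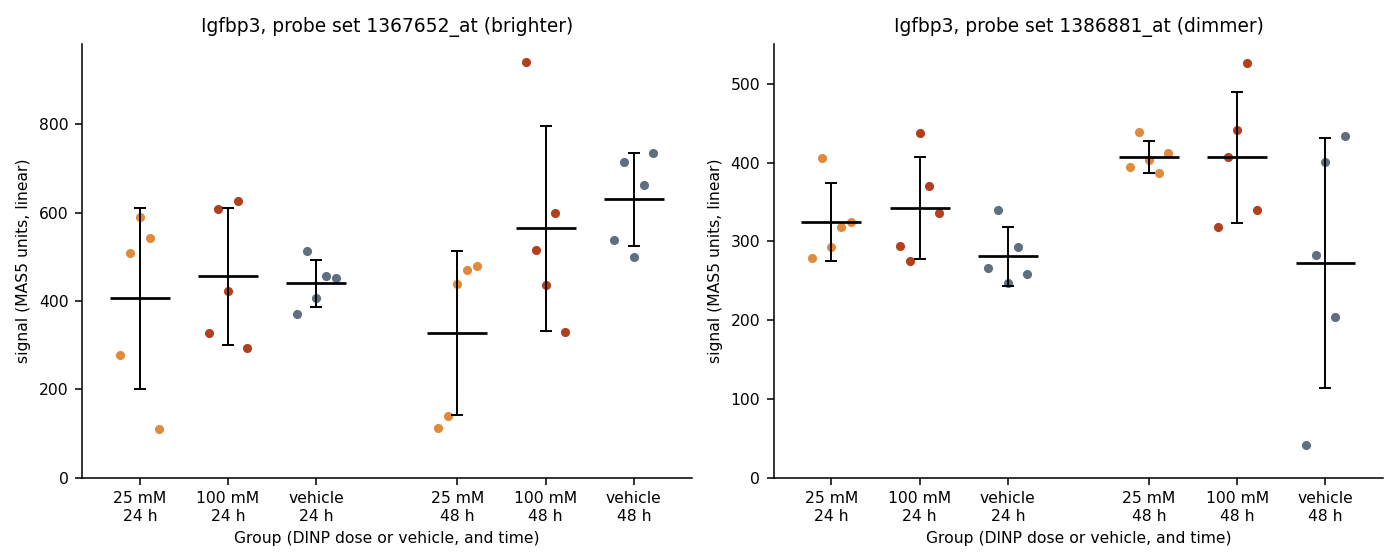
Signal of the 2 tested probe sets of Igfbp3 (linear MAS5 units) in each array, by dose and time, with the mean and SD of 5 arrays as bars. At 48 h the brighter one averages 328 with 25 mM against 630 with vehicle, and the dimmer one 407 against 272.

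Ccn2 was the gene among the 10 whose 2 doses differed by the test. At 24 h its signal was higher with 100 mM than with 25 mM by 0.68 ± 0.10 on the log2 scale (adjusted p = 0.000839, 95% interval 0.49 to 0.88), with no overlap of the 5 and 5 arrays, which held in this direction for 0.377% of all genes. It was the 1 gene called of 10604, or 0.00943%, in that comparison, where 2 of 18625 probe sets were called. The other was a probe set of Ddx54, an RNA helicase, which differed by 1.5 ± 0.22 (adjusted p = 0.00125). Ccn2's call ended when the 2 doses alone were fitted (adjusted p = 0.117). At 48 h the difference of Ccn2 was 0.28 ± 0.10 (adjusted p = 0.528, 95% interval 0.08 to 0.47) with overlapping arrays. The 1 gene called between doses at 48 h, again 0.00943%, was Fam3c, a secreted cytokine-like protein (0.51 ± 0.08, adjusted p = 0.016). Ddx54 and Fam3c are named for being the other calls, after their values were seen.

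For the 9 other genes the dose difference did not pass at either time. The median of 100 mM minus 25 mM over the 10 genes was 0.11 at 24 h and 0.03 at 48 h, against -0.00062 and -0.0067 over all genes. The widest gap at 24 h after Ccn2 was that of Ptpn14, 0.41 ± 0.22, next to 0.40 ± 0.15 for Crim1, and at 48 h that of Igfbp3, 0.90 ± 0.37, with adjusted p of 0.566 or higher. At an unadjusted limma p under 0.05 there were 3 genes at each time. They were Ccn2, Amotl2 and Crim1 at 24 h and Ccn2, Amotl2 and Igfbp3 at 48 h. The share of all tested genes under this unadjusted limit is not given, so the counts cannot be set against a background. Intervals of the dose differences still allow differences of the size seen against vehicle: from -0.05 to 0.86 for Ptpn14 and from 0.14 to 1.65 for Igfbp3.

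None of the 10 genes passed limma's test of a change in the DINP effect from 24 h to 48 h, beside 0.358% of all genes at 25 mM and 0.113% at 100 mM. For Ccn2 the 48 h effect minus the 24 h effect was 0.32 ± 0.14 at 25 mM (adjusted p = 0.507) and -0.08 ± 0.14 at 100 mM (adjusted p = 0.970). At an unadjusted p under 0.05 there was 1 gene at each dose, Ccn2 at 25 mM and Nt5e at 100 mM. Here too the share of all tested genes under the unadjusted limit is not given. For Nt5e the difference of effects was 0.24 ± 0.11 (adjusted p = 0.744). Genes called at 1 time and not at the other are thus not shown to differ between times.

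The vehicle cultures changed with time as well. From the 48 h arrays minus the 24 h arrays of vehicle, 1 of the 10 genes was called higher and 2 lower, beside 9.49% higher and 7.92% lower of all genes. Ccn2 was higher at 48 h by 0.44 ± 0.10 (adjusted p = 0.00151), with signals of 12148 to 14292 at 48 h against 8249 to 10277 at 24 h. Nt5e was lower by 0.41 ± 0.07 (adjusted p = 0.000228), at 2027 to 2710 against 3052 to 3599, and Dock5 by 0.45 ± 0.13 (adjusted p = 0.0144), at 773 to 1194 against 1149 to 1525. For Nt5e and Dock5 the step with time in vehicle was thus about the size of the DINP difference at 24 h, -0.38 to -0.53, while for Ccn2 the time step was opposite in sign to the DINP differences.

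The coactivators and their DNA-binding partners were read next, from a list of 8 genes of which 5 were tested. Called lower were 2, 2, 1 and 0 of the 5 at 25 mM for 24 h, 100 mM for 24 h, 25 mM for 48 h and 100 mM for 48 h. Of all tested genes, 7.84%, 7.02%, 12.1% and 9.2% were called lower in the same order. Among the 5, 0 were called higher, while 2, 2, 1 and 2 had an unadjusted limma p under 0.05. The shares of all tested genes are for adjusted calls, and none is given for the unadjusted counts. Tead1, 1 of the TEAD factors, had signals of 2069 to 2723 with 25 mM and 2550 to 3008 with 100 mM, against 3091 to 4133 with vehicle, at 24 h. It fell by 0.61 ± 0.08 (adjusted p = 1.94e-06) and 0.42 ± 0.08 (adjusted p = 0.000657), and at 48 h it differed by -0.38 ± 0.08 (adjusted p = 0.00139) and -0.20 ± 0.08 (adjusted p = 0.114). Tead2, another TEAD factor, fell at 24 h by 0.76 ± 0.14 (adjusted p = 0.000253) at 25 mM and by 0.53 ± 0.14 (adjusted p = 0.0106) at 100 mM. The 100 mM call of Tead2 ended without DINP array 2 (adjusted p = 0.0506). Wwtr1, which encodes TAZ, differed by -0.12, -0.09, -0.13 and -0.17, each ± 0.12 and not called. Yap1 was not analysed, because the annotation gives no probe set to it alone.

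Among the kinases, scaffolds and inhibitors upstream of YAP and TAZ, 17 of 22 listed genes were tested. Called lower were 3, 1, 5 and 2 of the 17 in the 4 comparisons in the same order, with 0 higher. Beside them, 7.84%, 7.02%, 12.1% and 9.2% of all tested genes were called lower. The list's median differences were -0.18, -0.21, -0.17 and -0.15. Lats1, the partner kinase of Lats2, was lower in all 4, by 0.41 ± 0.12 (adjusted p = 0.0195) and 0.44 ± 0.12 (0.0135) at 24 h and by 0.63 ± 0.12 (0.000201) and 0.62 ± 0.12 (0.000322) at 48 h, 25 mM first. At 24 h its 25 mM call ended with median centring (adjusted p = 0.0853), without vehicle array 4 (0.0712) and without DINP array 4 (0.0564), and its 100 mM call with median centring (0.0683) and without vehicle array 4 (0.0525). Its signal at 48 h was 1098 to 2103 with 25 mM and 1357 to 1863 with 100 mM, against 2138 to 2875 with vehicle. Taok1, a kinase upstream of the Hippo kinases, was lower by 0.53 ± 0.18 at 25 mM for 24 h and by 0.52 ± 0.18 at both doses for 48 h, with adjusted p of 0.0496, 0.0432 and 0.0499. These 3 calls ended when a single array was left out, for 8, 7 and 8 of the 10 arrays compared (adjusted p up to 0.209, 0.131 and 0.142). The scaffold Rassf1 (-0.47 ± 0.11, adjusted p = 0.00207) and the adaptor Frmd6 (-0.45 ± 0.14, adjusted p = 0.0256) were lower at 25 mM for 48 h, and the call of Frmd6 ended in this way for 5 of the 10 arrays (adjusted p up to 0.118).

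Of 23 further genes used as YAP/TAZ targets 14 were tested, and 1, 1, 1 and 0 were called higher and 0, 0, 2 and 1 lower in the 4 comparisons. All tested genes had 7.87%, 7.54%, 9.78% and 8.69% called higher and 7.84%, 7.02%, 12.1% and 9.2% lower. The median differences of the 14, 0.02, -0.05, -0.05 and -0.20, were close to those of all genes except in the last, where all genes had -0.06. Nuak2, a kinase, was higher at 25 mM, by 0.51 ± 0.17 (adjusted p = 0.0428) at 24 h and 0.48 ± 0.17 (adjusted p = 0.0487) at 48 h. These calls ended with a single array left out for 6 and 9 of the 10 arrays (adjusted p up to 0.152 and 0.135). Edn1, which encodes the peptide endothelin, was lower at 25 mM for 48 h (-0.50 ± 0.13, adjusted p = 0.00692), at 423 to 499 against 617 to 704 with vehicle. Gadd45b, a stress-induced gene, was lower at 48 h at both doses (-0.42 ± 0.12 and -0.39 ± 0.12, adjusted p = 0.0104 and 0.0206), and its relative Gadd45a was higher at 100 mM for 24 h (0.24 ± 0.08, adjusted p = 0.0439). The 100 mM call of Gadd45b ended in the same way for 3 of the 10 arrays (adjusted p up to 0.0687), and that of Gadd45a for 7 (up to 0.148). The first also ended with median centring (adjusted p = 0.138), and the second with quantile normalisation (0.1865). Ankrd1, another frequent readout of the pathway, was too dim to test.

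Of the other CCN genes, Ccn3 and Ccn5 were tested and neither was called. Their differences were -0.40 to -0.02 for Ccn3 and -0.23 to 0.62 for Ccn5. An unadjusted limma p under 0.05 was found for 2, 1, 0 and 0 of them. No share of all tested genes is given for that limit. The vehicle mean of Ccn5 at 24 h, 7.56 on the log2 scale, was below the dimmest tested mean. Of 8 genes for other IGF-binding proteins and their partners 6 were tested, with 2, 2, 1 and 1 called lower and 0, 0, 1 and 1 higher. All tested genes had 7.84%, 7.02%, 12.1% and 9.2% called lower and 7.87%, 7.54%, 9.78% and 8.69% higher. Igfbp1, an IGF-binding protein made by hepatocytes, was lower in all 4, by 0.32, 0.32, 0.47 and 0.40, each ± 0.06, with adjusted p between 4.49e-07 and 0.000305. Igfbp4 was lower at 24 h (-0.34 ± 0.11 and -0.38 ± 0.11, adjusted p = 0.0468 and 0.0265), calls that ended with a single array left out for 9 and 5 of the 10 arrays (adjusted p up to 0.127 and 0.0806). The growth factor gene Igf1 was higher at 48 h (0.19 ± 0.06 at both doses, adjusted p = 0.0263 and 0.0301), calls that ended in this way for 5 and 7 of the 10 arrays (adjusted p up to 0.109 and 0.117). Both Igf1 calls also ended with quantile normalisation (adjusted p = 0.315 and 0.43) and with the compared groups alone (0.101 and 0.102).

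Markers of hepatocytes were present throughout, and all 12 on the array were tested. The albumin gene Alb had signals of 97154 to 128637 with 25 mM and 97551 to 110928 with 100 mM at 24 h, against 85281 to 123681 with vehicle. Summed over the 12 markers, the signal at 24 h was 732439 to 862082 with 25 mM and 758413 to 815760 with 100 mM, against 754269 to 881758 with vehicle, and at 48 h 710932 to 823600 and 751169 to 855468, against 712197 to 835792. Of the 12, 1, 1, 3 and 1 were called higher and 1, 1, 2 and 2 lower in the 4 comparisons. Beside them, 7.87%, 7.54%, 9.78% and 8.69% of all tested genes were called higher and 7.84%, 7.02%, 12.1% and 9.2% lower. Tat, an enzyme of tyrosine breakdown, was lower in all 4, by 0.80 to 0.92, and the receptor gene Asgr1 was higher in all 4, by 0.49 to 0.67.

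Stellate cells and fibroblasts also make Ccn2 and Ccn1, so their markers were set beside the result. Of 14 such markers 7 were tested, and 0 of them were called at 24 h. There, 1 at 25 mM and 2 at 100 mM had an unadjusted limma p under 0.05. For these unadjusted counts no share of all tested genes is given. At 48 h Rgs5 was higher at 25 mM (0.63 ± 0.18, adjusted p = 0.00997) and Acta2, smooth muscle actin, was lower at 100 mM (-0.52 ± 0.14, adjusted p = 0.00881). Of all tested genes, 15.7% at 25 mM and 14.6% at 100 mM were called at 24 h, and with 7 genes a count of 0 is close to these shares. For 48 h, 9.78% of all tested genes were called higher at 25 mM and 9.2% lower at 100 mM. Summed over all 14 markers on the array, the 7 too dim to test included, the signal at 24 h was 4520 to 5503 with 25 mM and 4109 to 5019 with 100 mM, against 4567 to 5987 with vehicle. At 48 h it was 4959 to 5446 and 4347 to 4973, against 4894 to 5990. Their defining markers Lrat, Pdgfrb, Pdgfra and Col1a2 were below the level for testing.

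Of the endothelial markers, 5 of 12 were tested and 0 were called. In the 4 comparisons, 0, 1, 1 and 1 had an unadjusted limma p under 0.05, again without a share of all tested genes. The sums over the 10 endothelial markers on the array, tested or not, were at 24 h 3019 to 3544 (25 mM) and 2098 to 3638 (100 mM) against 3023 to 3584 with vehicle, and at 48 h 2719 to 3596 and 2556 to 3375 against 2173 to 3092. Of 8 tested macrophage markers, 2, 1, 2 and 2 were called higher, 1, 0, 1 and 0 lower, and 5, 7, 5 and 6 were not called. All tested genes had 7.87%, 7.54%, 9.78% and 8.69% called higher and 7.84%, 7.02%, 12.1% and 9.2% lower. Cd14, an endotoxin receptor found on macrophages and also made by hepatocytes, was higher in all 4 comparisons, by 0.25, 0.19, 0.42 and 0.34. The 100 mM call of Cd14 at 24 h ended with quantile normalisation (0.11, adjusted p = 0.110). The complement gene C1qb was higher at 48 h (0.79 ± 0.24 and 0.94 ± 0.24, adjusted p = 0.0158 and 0.00473), and its vehicle mean there, 7.72 on the log2 scale, was below the dimmest tested mean. C1qc was higher at 25 mM for 24 h (0.37 ± 0.12, adjusted p = 0.038), a call that ended with a single array left out for 7 of the 10 arrays (adjusted p up to 0.124). The lysozyme gene Lyz2 was lower at 25 mM, by 0.18 ± 0.06 (adjusted p = 0.0381) at 24 h and 0.23 ± 0.06 (adjusted p = 0.00596) at 48 h, and both calls ended with median centring (0.475 and 0.0522). With a single array left out, the 24 h call of Lyz2 ended for 4 of the 10 arrays (adjusted p up to 0.126) and the 25 mM call of C1qb for 2 (up to 0.0576). Summed over the 11 macrophage markers on the array, the signal at 24 h was 30329 to 33066 and 29352 to 31284, against 28746 to 30011 with vehicle, and at 48 h 32392 to 37495 and 34461 to 35716, against 29023 to 31572. Of the bile duct markers 3 were tested, and Epcam was lower at 48 h at 25 mM (-0.35 ± 0.07) and 100 mM (-0.22 ± 0.07), the second call ending with a single array left out for 7 of the 10 arrays (adjusted p up to 0.123). The sums over the 6 bile duct markers on the array at 48 h were 9557 to 11980 and 11077 to 13113, against 12367 to 14900. At 24 h the bile duct sums were 8164 to 9998 and 9084 to 10046, against 9179 to 11042. The part of these cell types in the differences of the 10 genes was not tested.

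The genes whose 6 group means followed those of Ccn2 most closely were Prr15l, Acmsd, Steap4, B4galt5 and Plekhm2. Likeness was the root mean square difference between the 2 sets of group means, each centred on its own mean, on the log2 scale, and it was 0.47, 0.60, 0.62, 0.63 and 0.65 for the 5 genes. Acmsd encodes an enzyme of tryptophan breakdown, Steap4 a metalloreductase and B4galt5 a galactosyltransferase. Steap4 had mean log2 signals of 11.75 and 11.82 with 25 and 100 mM against 13.30 with vehicle at 24 h, and 11.26 and 11.42 against 13.03 at 48 h. Acmsd had 9.45 and 9.72 against 11.08 at 24 h, and 9.58 and 9.47 against 10.81 at 48 h. Prr15l lay below 7.96, the dimmest tested mean, in all 4 DINP groups, and Plekhm2 in the group of 25 mM at 24 h. Signal above background is not shown for them there. Prr15l lay above that mean only with vehicle, at 8.64 at 24 h and 9.41 at 48 h, and passed the filter through those groups.

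None of the 9 other listed genes came as close to Ccn2 as these 5. By the same measure Ccn1 was placed 56 of 10603 genes, with 0.86, followed by Ptpn14 at place 187, Igfbp3 at 367, Amotl2 at 899, Crim1 at 903, Dock5 at 1141, Lats2 at 1520, Nt5e at 1738 and F3 at 4167. The measure weighs the size of a difference as well as its pattern, so genes that changed little are far from Ccn2 by it.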

How the data were processed

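RNA from 30 cultures was hybridised to Affymetrix rat arrays, 1 array per culture. The authors deposited 1 linear intensity per probe set and array. Per the submitters' processing notes, MAS5 produced these values (version not given in the sources used here). Their 2% trimmed mean was 1500.7 on every array, so the arrays had been scaled to 1 mean before deposit. From these, log2(signal + 16) was computed, which understates the change of dim genes. The 57 control probe sets were dropped, and probe sets with a mean under the 40th percentile were left out. The other 18625 went into limma 3.58.1 (R 4.3.3) as 1 fit of the 6 groups with a variance trend and Benjamini-Hochberg adjustment over all of them. The code was first tested on simulated data with 200 changed probe sets. It called 87% of log2 changes of 1 and 56% of those of 0.5, with 13 false calls beside 143 true ones. A change of 1 can therefore be missed, and one of 0.5 or less more often. In the real comparisons with vehicle 2288 to 3333 probe sets were called, so the shares recovered there may differ. Errors of log2 differences are SE with 24 residual degrees of freedom, and the number of arrays, 5 per group, limits the precision. Where several probe sets of a gene were tested, the brightest stood for it. Symbols came from the platform annotation, updated through Entrez IDs. Alternatives were another added constant (1 or 64), no filter or a 60th percentile filter, quantile normalisation, median centring, the compared groups alone, no variance trend, array weights, runs of array numbers as a block, the median of a gene's probe sets, and leaving out each array. Arrays are numbered within a group in sample order. Named were the 10 genes, at most 4 called genes per list with the largest differences, the core pathway genes Wwtr1, Tead1 and Lats1, and the 5 genes most like Ccn2. Yap1 was to be named as well but had no probe set given to it alone. The genes and lists were chosen with earlier results of these data known.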

Additional observations from a re-analysis of the deposited data

Results flagged for a closer look

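Among 60 sets of 5 arrays, 10 genes in 6 groups, 4 held an array whose gap to its nearest neighbour, divided by the group's range on the log2 scale, was above Dixon's 95% critical value of 0.71. Chance gives about 1 in 20. Ccn2 read 8249.33 in vehicle array 3 at 24 h, against 9671 to 10277 in the others. Dock5 read 726.366 in array 4 of 25 mM DINP at 24 h, against 959 to 1049. Lats2 read 1697.41 in array 5 of 100 mM DINP at 48 h, against 2061 to 2194. Nt5e read 2027.47 in vehicle array 1 at 48 h, against 2584 to 2710. The 4 arrays are different ones. Leaving out the Nt5e array brought the 100 mM difference at 48 h to -0.25 (adjusted p = 0.0115), where it was -0.17 (0.122) with it, and leaving out each of the other 3 ended no call of its gene in the comparisons with vehicle.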

How the results depend on the processing

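Ccn2 was called lower in all 80 alternatives to the 4 comparisons with vehicle. Of the 19 called differences of the 10 genes, 10 passed in every alternative run and 9 lost the call in at least 1, and of the 21 not called, 4 gained one. None of the called values changed sign. With the median of a gene's tested probe sets, the counts of called genes were 6, 4, 3 and 4, where they had been 7, 4, 4 and 4. With the run of array numbers as a block, none of the 19 calls was lost and 3 were gained. For named genes outside the 10, calls that ended under an alternative are not all listed in the text. Of the 10 genes, 7 were called lower at 25 mM for 24 h. This number became 4 with the 60th percentile filter, which leaves 5 of the 10 genes in the test. It was 4 with each array centred on its median, and 4 to 6 without 1 array. Quantile normalisation, no filter on dim probe sets and the compared groups alone each ended the calls of Ccn1 and Crim1 there. For 100 mM at 24 h the number called lower was 3 to 5 without 1 array. Further alternatives that moved such counts are not all listed. At 25 mM for 48 h, 4 became 2 with the compared groups alone and 2 to 4 without 1 array, the lowest without vehicle array 2. At 100 mM for 48 h, 4 became 2 with quantile normalisation and 2 with median centring, and 3 to 4 without 1 array. Between doses at 24 h, 2 called probe sets became 1 with the 60th percentile filter, 0 with the 2 groups alone and 2 to 3 without 1 array. At 48 h, 1 became 0 with the 2 groups alone, 0 without a variance trend, 2 with the run as a block and 0 to 4 without 1 array. The change of the 25 mM effect with time had 45 called probe sets, 13 with median centring and 31 to 57 without 1 array. For 100 mM the count was 12, with 24 under quantile normalisation, 25 with array weights and 10 to 21 without 1 array. The causes were not tested. Among all called probe sets, the share that was higher was 43.9%, 45.1%, 41.4% and 44.6% in the 4 comparisons with vehicle, and 65.2%, 70.8%, 40.6% and 75.1% with median centring, which moved the median of all probe sets at 100 mM for 48 h from -0.07 to 0.03. The labels give no replicate numbers that pair the wells, and the run of array numbers was the block fitted.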
